A study of Mus musculus with 11 samples.

Results

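The genes described are 41 mouse imprinted genes that lie outside the *Dlk1*-*Dio3* cluster. They were chosen by symbol from the 55401 genes of the deposited count table, and the rule that selects them uses no measured value. They comprise 21 genes listed as paternally expressed and 20 listed as maternally expressed. Of the former, *Inpp5f* is listed with limited imprinting. The same holds for *Blcap*, *Kcnq1*, *Grb10*, *Gnas*, *Ube3a*, *Copg2*, *Calcr*, *Ppp1r9a*, *H13*, *Commd1*, *Kcnk9* and *Trappc9* of the latter. These genes, most of the maternal group, need not be expressed from a single allele in islet cells. Of the members, 16 lie on chromosome 7, 8 on chromosome 6, 5 on chromosome 2 and 4 on chromosome 15, and the others are on chromosomes 9, 10, 11, 17 and 18. RNA was sequenced from islet cells of 4 male C57BL6/J reporter mice, chow fed and labelled as 10 weeks old. All groups carried a rat insulin promoter (RIP)-Cre, a STOP-tdTomato cassette that Cre opens and so marks insulin-expressing cells, and an *Nnat*-EGFP transgene, which by the study's methods reached the mice through the father. This transgene reports the activity of the *Nnat* enhancer and promoter regions, not the NNAT protein. Dispersed islet cells were sorted by FACS into tdTomato-positive beta cells labelled NNAT-positive (*n*=4) or NNAT-negative (*n*=4), and into non-beta cells (*n*=3, none from mouse 4). Libraries with the same number came from one mouse. In such bulk samples, fewer cells of a type and less RNA per cell cannot be told apart.

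Imprinted genes are transcribed mainly from one parental copy because the parental germ lines place different DNA methylation marks on control regions of each locus, and these marks are kept through later cell divisions. At several loci the unmethylated copy of the control region serves as a promoter for a long non-coding RNA, such as *Airn* or *Kcnq1ot1*, that silences neighbouring genes on the same chromosome. Some paternally expressed genes, among them *Nnat*, *Mcts2*, *Zrsr1*, *Nap1l5* and *Peg13*, lie inside an intron of a host gene. Imprinted genes act in growth, metabolism and placental function, and several, including *Plagl1*, *Grb10* and *Cdkn1c*, are linked to insulin secretion or beta cell number. Counts do not separate the parental alleles, so every value below is the sum over both.

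Promoter sequences of 4 paternally expressed members are shown because these genes are described below, *Nnat* between the fractions and all 4 between mice. Each holds 300 bases around the RefSeq start on GRCm38.p6, the last 50 of them downstream of that start. Each is written in the direction of transcription, with its CG dinucleotides, the sites of DNA methylation, in capitals. By the gencode annotation *Mcts2* starts farther upstream in its window, at chr2:152687035, so more of that window is transcribed. *Nnat* (chr2:157559828-157560127, plus strand) lies in *Blcap* on the opposite strand, *Kcnq1ot1* (chr7:143296498-143296797, minus strand) in *Kcnq1* on the opposite strand, *Mcts2* (chr2:152686898-152687197, plus strand) in *H13* on the same strand, and *Peg3* (chr7:6730370-6730669, minus strand) next to *Usp29*.
Nnat: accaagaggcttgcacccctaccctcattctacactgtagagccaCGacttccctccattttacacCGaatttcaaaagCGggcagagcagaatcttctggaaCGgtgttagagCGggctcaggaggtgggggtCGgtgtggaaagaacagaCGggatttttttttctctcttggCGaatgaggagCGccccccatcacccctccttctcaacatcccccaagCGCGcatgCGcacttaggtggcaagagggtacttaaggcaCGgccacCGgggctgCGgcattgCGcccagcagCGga
Kcnq1ot1: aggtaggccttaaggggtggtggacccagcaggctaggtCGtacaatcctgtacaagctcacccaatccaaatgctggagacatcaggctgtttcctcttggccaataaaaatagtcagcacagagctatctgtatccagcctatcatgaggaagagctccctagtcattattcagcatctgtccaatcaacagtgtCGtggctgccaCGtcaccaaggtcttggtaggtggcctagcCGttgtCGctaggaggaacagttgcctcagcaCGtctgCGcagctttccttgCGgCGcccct
Mcts2: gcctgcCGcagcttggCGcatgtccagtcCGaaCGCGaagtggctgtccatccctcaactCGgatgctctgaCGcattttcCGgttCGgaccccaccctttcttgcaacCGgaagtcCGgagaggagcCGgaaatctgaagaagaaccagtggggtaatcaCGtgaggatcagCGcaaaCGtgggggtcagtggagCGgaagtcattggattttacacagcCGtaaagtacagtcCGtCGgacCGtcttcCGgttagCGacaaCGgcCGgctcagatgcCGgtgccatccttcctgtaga
Peg3: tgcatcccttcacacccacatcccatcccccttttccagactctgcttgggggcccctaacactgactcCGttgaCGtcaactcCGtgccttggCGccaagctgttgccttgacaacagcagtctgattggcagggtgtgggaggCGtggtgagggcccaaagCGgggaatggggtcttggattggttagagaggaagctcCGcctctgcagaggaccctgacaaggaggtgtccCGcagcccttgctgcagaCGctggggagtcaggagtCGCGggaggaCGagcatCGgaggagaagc

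The motif searched was CG, which reads the same on both strands. It occurred 17 times in the *Nnat* window, 9 times in that of *Kcnq1ot1*, 25 times in that of *Mcts2* and 13 times in that of *Peg3*. Of 32851 promoters of the same length, 94.57% held at least 1 CG, and the median was 7. As many CG dinucleotides as in the *Mcts2* window were found in 18.43% of promoters, and as many as in the *Nnat* window in 31.41%. Promoters were matched for 32 of the 41 members, and their 50 promoters had a median of 16.5 CG. The 27 promoters of 17 paternally expressed genes had a median of 10, and the 23 of 15 maternally expressed genes a median of 21. Each promoter was counted separately, so genes with several promoters, such as *Snrpn*, *Igf2* and *Gnas*, weigh more in these medians. All these values are counts of letters and say nothing of methylation in these cells.

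The libraries held between 30420352 and 43238376 counts, so that the floor of 3 counts used here was at most 0.102 CPM (counts scaled to the normalised library size) in any library. Beta cell markers summed to 178400 to 423800 CPM in the beta cell libraries and to 10410 to 25680 CPM in the non-beta libraries, and alpha cell markers to 1585 to 4073 and 123100 to 171300 CPM. The non-beta libraries also held endothelial markers (1531 to 1742 CPM), mesenchymal markers (2632 to 6309 CPM) and acinar markers (8753 to 36210 CPM), so they are not endocrine cells alone. Both beta cell libraries of mouse 4 stood apart, with 15215 and 15776 genes at 10 or more counts against 13909 to 14859 in those of the other mice. *Nnat*, which encodes neuronatin, a small membrane protein of the endoplasmic reticulum, went against its label. It had 50.5, 46.4, 46.0 and 101 CPM in the labelled-positive libraries of mice 1 to 4, and 74.7, 80.8, 66.4 and 153 CPM in the labelled-negative libraries. In 4 of 4 mice the labelled-positive library had the lower value, while the groups overlapped because both libraries of mouse 4 were high. The log2 fold change was −0.62 (SE 0.17, 95% interval −0.998 to −0.24), with an adjusted *p* of 0.444 in edgeR's quasi-likelihood test. A normalised version of these counts that accompanies the study names the beta cell fractions the other way round. The deposited labels were kept (labelled-positive and labelled-negative libraries below), and directions between the beta cell fractions refer to those labels.

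Levels per kilobase of exon ranged widely among the members. *Peg3*, a zinc-finger protein gene, had the highest level in beta cells, at 149 CPM per kilobase over the mean of both fractions. *Gnas*, which encodes the stimulatory G protein alpha subunit that raises cyclic AMP, followed at 102 CPM per kilobase, and *Slc38a4*, an amino acid transporter, at 85.6. *Peg13*, a non-coding RNA, had 45.6 CPM per kilobase, *Nnat* 42.3 and its host *Blcap* 35.0. In non-beta cells the order differed, with *Gnas* at 327 CPM per kilobase and *Peg3* at 86.7. Of the 41 members, 4 were too low to be tested. *Phlda2* had 3 counts and *Magel2* 2 counts in all, each of them in the beta cell libraries of mouse 4. *Ascl2* had 8 counts and *Calcr*, the calcitonin receptor, 5 counts, each of them in the non-beta library of mouse 1. The remaining 37 members, 20 paternally and 17 maternally expressed, entered the fits among the 17424 genes tested.

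**Figure D1:**
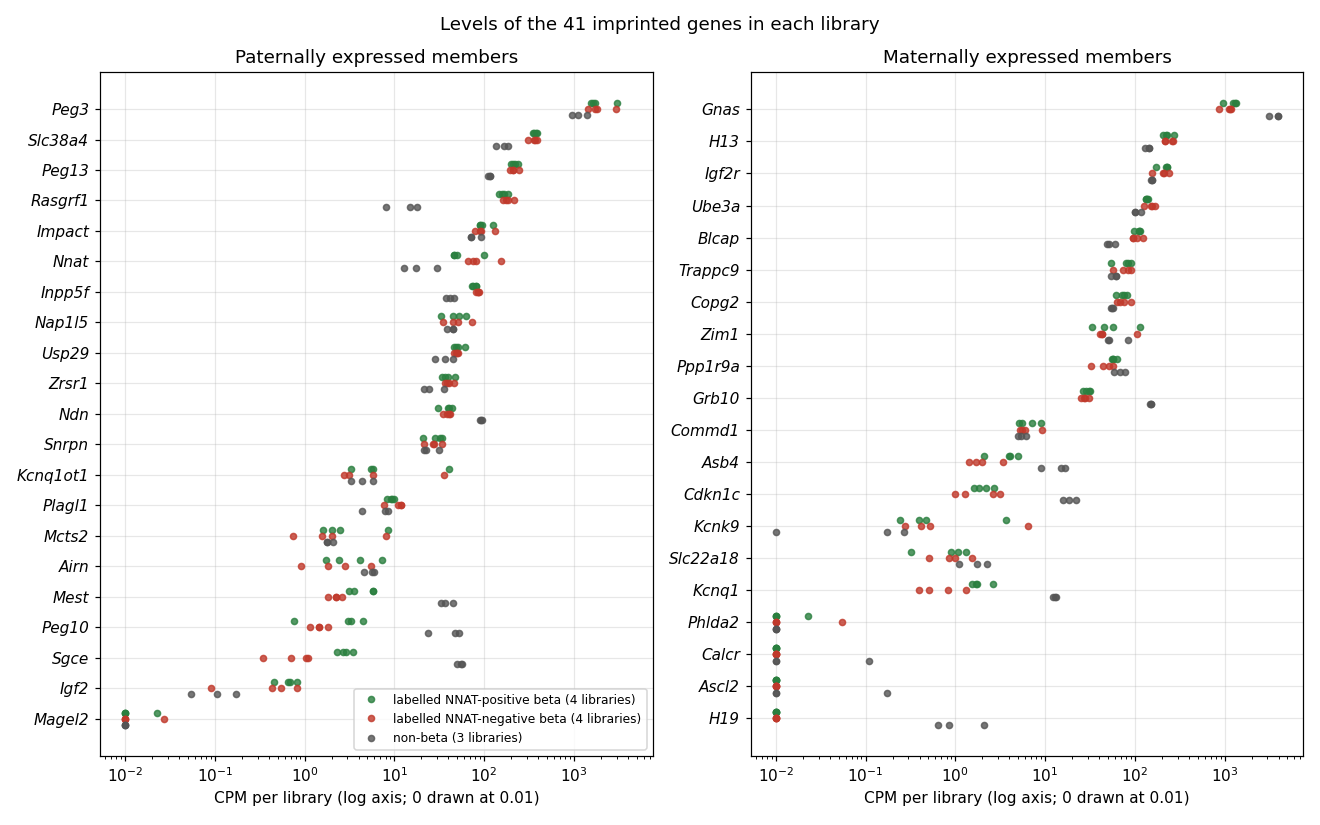
Each point is 1 library, placed by its CPM on a log axis, for the 21 paternally (left) and 20 maternally (right) expressed members; green and red points are beta cells labelled NNAT-positive and NNAT-negative (*n*=4 each), and grey points non-beta cells (*n*=3). The grey points of *Rasgrf1* (8.17 to 17.8 CPM) lie far left of its beta cell points, those of *Sgce* (50.6 to 56.4 CPM) far right, and *H19* has points above 0 in the 3 non-beta libraries only.

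Beta cells were compared with non-beta cells as the mean of both beta cell fractions, with the mouse as a block. Of the 37 tested members, 13 were higher in beta cells and 11 lower (edgeR's quasi-likelihood test, adjusted *p* below 0.01). Over all 17424 tested genes, 17.2% were higher and 23.9% lower. Of the 20 paternally expressed members 7 were higher and 4 lower, and of the 17 maternally expressed members 6 were higher and 7 lower. The median log2 fold change was 0.28 over the members, 0.37 over the paternally and −0.46 over the maternally expressed ones, against −0.10 over all genes tested. With a more than 2-fold change also required, 3 members were higher (6.22% of all genes) and 10 lower (18.9%). All 8 beta cell libraries were above all 3 non-beta libraries for 12 members (16.5% of all genes) and below them for 10 (26.2%). Without mouse 4 the counts were again 13 and 11. Mouse 4 has no non-beta library, so with the mouse as a block it adds little to these fold changes. That fit could therefore hardly differ, and does not test the calls against mouse 4. Without the mouse as a block the counts were 8 and 10, and *Peg3*, *Usp29*, *Igf2r*, *Copg2*, *Trappc9* and *Ppp1r9a* no longer passed.

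**Figure D2:**
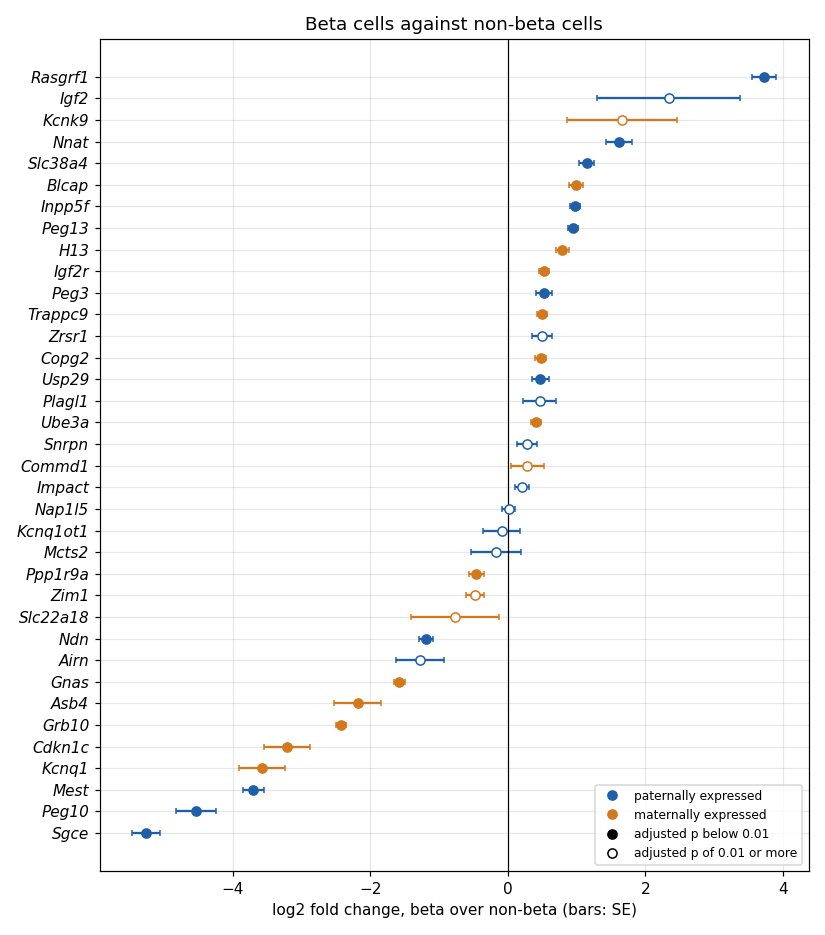
Log2 fold changes of beta over non-beta cells with their SE for 36 members (*H19*, at 0 in all beta cell libraries, is left out), in blue for paternally and orange for maternally expressed genes, filled where the adjusted *p* was below 0.01. Members range from −5.26 (*Sgce*) to 3.72 (*Rasgrf1*), and both colours occur on both sides of 0.

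Among the genes of growth and the cell cycle, the largest rise was that of *Rasgrf1*, an exchange factor that activates Ras in response to calcium (chr9:89909908-90026977, GRCm38). It had 167, 147, 186 and 157 CPM in the labelled-positive libraries, 162, 173, 216 and 184 CPM in the labelled-negative libraries, and 8.17, 14.9 and 17.8 CPM in non-beta cells. The beta and non-beta libraries were thus far apart, and the log2 fold change was 3.72 (SE 0.18, adjusted *p* 9.5e-08 in edgeR's quasi-likelihood test). Its non-imprinted relative *Rasgrf2* was lower in beta cells (log2 fold change −1.60, SE 0.31), at 28.2 and 23.3 CPM in the fractions labelled positive and negative against 85.7 CPM.

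*Grb10*, an adaptor that dampens signalling of the insulin and IGF receptors, was lower in beta cells. Non-beta libraries had 150, 149 and 152 CPM, and all 8 beta cell libraries lay between 24.8 and 32.0 CPM. The log2 fold change of −2.42 had the smallest adjusted *p* of the members (SE 0.07, adjusted *p* 7.7e-09 in edgeR's quasi-likelihood test). The related adaptors *Grb7* and *Grb14* did not pass (−0.04 and −0.22 on the log2 scale). *Cdkn1c*, which encodes the cell cycle inhibitor p57, had 18.5, 15.8 and 21.9 CPM in non-beta cells and at most 3.13 CPM in any beta cell library, a log2 fold change of −3.21 (SE 0.33). Of its relatives, *Cdkn1a* was lower by less (−0.55, SE 0.12), and *Cdkn1b* did not pass (0.18).

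*H19*, a non-coding RNA, had 0 counts in all 8 beta cell libraries and 0.648, 0.847 and 2.10 CPM in the non-beta libraries. The mean of the non-beta libraries, 1.197 CPM, was 117-fold above the floor of 3 counts taken over the 8 beta cell libraries. This ratio takes the non-beta mean as exact, so a smaller difference is not excluded. In the fit, *H19* had a log2 fold change of −8.44 (SE 1.58, 95% interval −12.53 to −4.356). Its call did not hold in the fits without mouse 1, 2 or 3, nor for either beta cell fraction alone. Its neighbour *Igf2*, a growth factor gene, was low throughout, at 0.0913 to 0.832 CPM in beta cells and 0.0537 to 0.173 CPM in non-beta cells, and did not pass (2.34, SE 1.04). *Igf2* shares 3596 exonic bases with *Gm49394* on the same strand, so its reads could be split between them. *Igf1*, the related growth factor, had a mean of 49.5 CPM in non-beta cells and at most 0.00654 CPM as a mean in a beta cell fraction.

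*Igf2r*, the receptor that clears IGF2, was higher in beta cells. It had 221, 229, 227 and 173 CPM in the labelled-positive libraries and 208, 213, 241 and 157 CPM in the labelled-negative libraries, against 156, 155 and 153 CPM. All beta cell libraries were above all non-beta ones, those of mouse 4 by least, and the log2 fold change was 0.53 (SE 0.08). *Airn*, its antisense RNA, had a fold change of the other sign that did not pass (−1.28, SE 0.35, adjusted *p* 0.0114 in edgeR's quasi-likelihood test), and overlapped between the groups. It passed with DESeq2, with RLE size factors and without a filter on low counts (adjusted *p* between 0.000576 and 0.00999). *Plagl1*, a zinc-finger gene of the transient neonatal diabetes locus, had 7.74 to 12.02 CPM in beta cells and 4.41 to 8.58 CPM in non-beta cells (0.46, SE 0.24) and did not pass either.

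Of the genes of receptor signalling, channels and transport, *Slc38a4* and *Inpp5f*, a phosphoinositide phosphatase gene, rose, and *Gnas*, *Kcnq1* and *Asb4* fell. *Slc38a4* had 306 to 393 CPM in the beta cell libraries and 135, 183 and 166 CPM in non-beta cells, a log2 fold change of 1.14 (SE 0.12). *Inpp5f* had 73.3 to 86.9 CPM in beta cells and 37.7 to 46.3 CPM in non-beta cells, with little spread in either (0.97, SE 0.08). *Gnas* had 950 to 1342 CPM in the labelled-positive libraries and 861 to 1182 CPM in the labelled-negative libraries, against 3108, 3971 and 3903 CPM in non-beta cells. All beta cell libraries were below all non-beta ones, and the log2 fold change was −1.58 (SE 0.08). *Gnas* shares 988 exonic bases with the antisense *Nespas* and 1469 with *Gm20721*, and the count table gives 1 value for all its alternative transcripts, of which some are maternally, some paternally and some biallelically expressed.

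*Kcnq1*, a voltage-gated potassium channel gene, had 13.1, 12.1 and 13.1 CPM in non-beta cells and 0.396 to 2.60 CPM in beta cells (−3.57, SE 0.33). Its antisense RNA *Kcnq1ot1* overlapped between the groups, and its fold change was small with the mouse as a block (−0.09, SE 0.27) but 1.51 without it. *Kcnk9*, a 2-pore potassium channel gene, had at most 0.269 CPM in non-beta cells and did not pass (1.66, SE 0.80). *Kcnk3*, its non-imprinted relative, was at 81.3 CPM in non-beta cells and at 5.82 and 3.27 CPM in the beta cell fractions (−4.17, SE 0.15). *Asb4*, a SOCS-box gene, fell (−2.18, SE 0.34), and the organic cation transporter *Slc22a18* did not pass (−0.77, SE 0.64).

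Of the genes within a host gene, *Nnat* and *Peg13* were higher in beta cells together with their hosts, and the others did not pass. *Nnat* and its host *Blcap* both rose, *Nnat* by more. *Nnat* had 12.9, 29.8 and 17.4 CPM in non-beta cells, below each of the 8 beta cell libraries (1.62, SE 0.19), and *Blcap* had 48.3, 59.7 and 51.1 CPM there against 94.2 to 123 CPM in beta cells (0.99, SE 0.10). *Peg13* had 118, 112 and 116 CPM in non-beta cells and 192 to 245 CPM in beta cells (0.95, SE 0.07). Its host *Trappc9*, a gene of vesicle tethering, was also higher (0.50, SE 0.07), but the beta cell libraries of mouse 4, at 54.8 and 57.1 CPM, lay within the non-beta range. *H13*, the signal peptide peptidase gene, had 131 to 145 CPM in non-beta cells and 207 to 275 CPM in beta cells (0.79, SE 0.10). *Mcts2*, the retrogene within it, did not pass (−0.17, SE 0.36), and reads could be shared between it and its parent gene *Mcts1*. *Zrsr1*, which encodes a splicing factor, did not pass (0.50, SE 0.14, adjusted *p* 0.014 in edgeR's quasi-likelihood test) except with DESeq2, without a filter and without mouse 2, nor did its host *Commd1* (0.28, SE 0.24), nor *Nap1l5*, at 0.01 (SE 0.09).

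Of the genes for nuclear proteins, ubiquitin and splicing, *Peg3*, *Usp29* and *Ube3a* rose by less than 2-fold and *Ndn* fell. *Peg3* had 1556 to 3051 CPM in the labelled-positive libraries, 1448 to 2965 CPM in the labelled-negative libraries, and 966, 1396 and 1104 CPM in non-beta cells. No beta cell library overlapped a non-beta one (0.53, SE 0.11, adjusted *p* 0.00249 in edgeR's quasi-likelihood test), and the call was lost without mouse 1, without mouse 3 and without the block. The deubiquitinase gene *Usp29*, which starts next to *Peg3*, rose by 0.47 (SE 0.12) and lost its call in the same 3 fits, with RLE size factors and in the labelled-negative fraction alone. *Zim1*, the maternally expressed zinc-finger gene of that locus, had the opposite sign and did not pass (−0.47, SE 0.13, adjusted *p* 0.0101), although it did with DESeq2, with RLE size factors, without a filter on low counts and with hormone genes left out of library sizes (adjusted *p* between 2.7e-05 and 0.00812). *Ube3a*, a ubiquitin ligase gene, had 126 to 167 CPM in beta cells and 99.8 to 118 CPM in non-beta cells (0.41, SE 0.08), a call that was lost without mouse 3. *Ndn*, which encodes necdin, had 30.3 to 43.8 CPM in beta cells and 89.4, 92.1 and 94.8 CPM in non-beta cells (−1.19, SE 0.10). *Snrpn*, a splicing protein gene that shares 216 exonic bases with *Snurf*, did not pass (0.28, SE 0.14).

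The *Peg10* and *Mest* loci on chromosome 6 held the 3 tested members with the largest falls beside *H19*. *Sgce*, the epsilon-sarcoglycan gene (chr6:4674350-4747207, GRCm38), had 50.6, 55.2 and 56.4 CPM in non-beta cells and 0.341 to 3.48 CPM in beta cells (−5.26, SE 0.20). *Peg10*, a gene derived from a retrotransposon, had 24.0, 46.9 and 52.8 CPM against 0.758 to 4.43 CPM (−4.53, SE 0.29). *Mest*, a hydrolase gene, had 33.2, 44.8 and 36.3 CPM against 1.83 to 5.78 CPM (−3.70, SE 0.16). In none of these did a beta cell library reach a non-beta one. *Ppp1r9a*, which encodes neurabin, fell by 0.46 on the log2 scale (SE 0.11), with overlapping libraries, and lost its call without mouse 2, without mouse 3 and in the labelled-positive fraction alone (−0.28, against −0.63 in the labelled-negative fraction). *Copg2*, a coatomer gene that shares 912 exonic bases with *Mest* on the opposite strand, was higher in beta cells (0.48, SE 0.08), as was its relative *Copg1* (0.51, SE 0.08). *Impact*, which encodes an inhibitor of the translation kinase GCN2, did not pass (0.20, SE 0.10) except without mouse 2 (0.33).

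Between the beta cell fractions, none of the 37 members passed edgeR's quasi-likelihood test (adjusted *p* below 0.01), in which 0.0517% of all tested genes were higher in the labelled-positive libraries and 0% lower. At an adjusted *p* below 0.05, where 0.0918% of all genes were called, 1 member passed, *Sgce*. DESeq2 called 3 members at 0.01, but the share of all genes that it called was not counted, so this count has nothing to be set against. At an unadjusted *p* below 0.05, 5 members were higher (4.82% of all genes) and *Nnat* alone was lower (0.746%). The median log2 fold change was 0.06 over 36 members, without *H19*, and 0.05 over all genes. It was 0.04 over the 20 paternally and 0.06 over the 16 maternally expressed members. For 26 of the 36 members, the 95% interval of the fold change lay within 2-fold in both directions, as it did for 59.9% of all genes. In all, 8 members were higher in the labelled-positive library in 4 of 4 mice (11.4% of all genes), and 3, *Nnat*, *Inpp5f* and *Kcnk9*, were lower in 4 of 4 (4.42%).

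**Figure D3:**
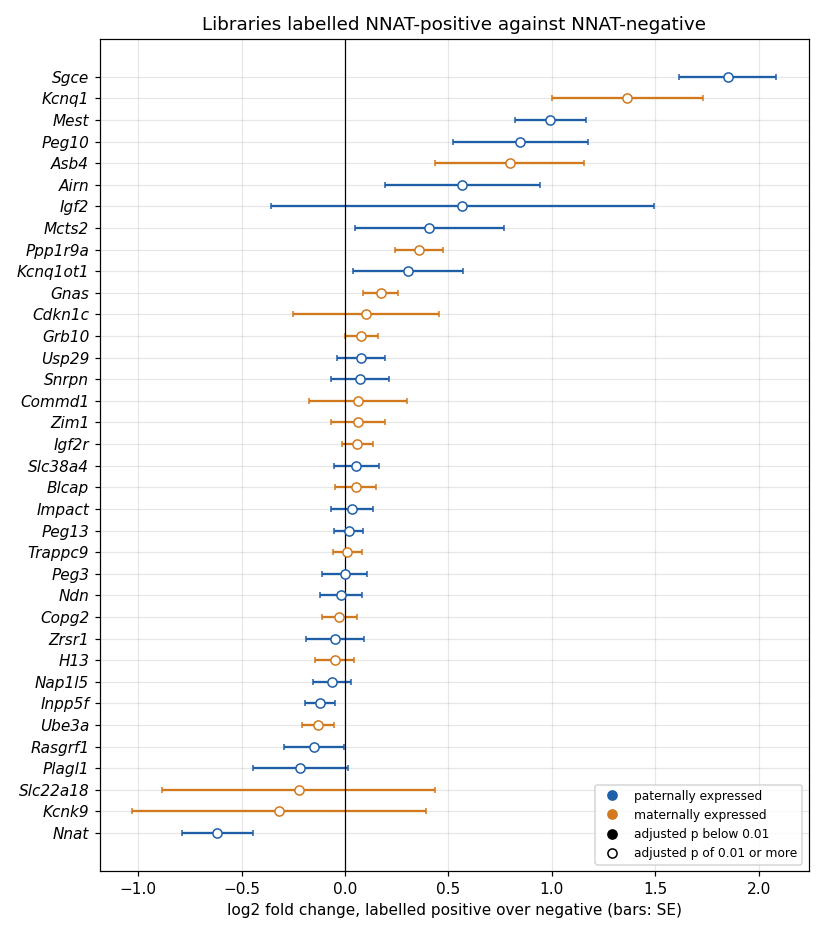
Log2 fold changes of the labelled-positive libraries over the labelled-negative libraries, with their SE, for 36 members; colours as in the plot of beta over non-beta cells, and open points had an adjusted *p* of 0.01 or more. All points are open, and *Sgce* (1.85), *Kcnq1* (1.37) and *Mest* (0.99) lie farthest to the right of the members and *Nnat* (−0.62) farthest to the left.

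The member with the smallest adjusted *p* was *Sgce*. It had 2.67, 2.30, 3.48 and 2.92 CPM in the labelled-positive libraries of mice 1 to 4, and 0.341, 0.700, 1.08 and 1.04 CPM in the labelled-negative libraries. The groups did not overlap, and the log2 fold change was 1.85 (SE 0.24, adjusted *p* 0.0211 in edgeR's quasi-likelihood test). *Mest* had 3.59, 5.78, 3.11 and 5.73 CPM against 2.25, 2.25, 1.83 and 2.62 CPM, again without overlap (0.99, SE 0.17, adjusted *p* 0.0761). *Kcnq1* had 1.69, 1.75, 1.52 and 2.60 CPM against 0.512, 0.396, 1.30 and 0.820 CPM (1.37, SE 0.36, adjusted *p* 0.396), also without overlap. *Peg10* was higher in 3 of 4 mice (0.85, SE 0.32, adjusted *p* 0.816), and *Ppp1r9a* in 4 of 4 (0.36, SE 0.12, adjusted *p* 0.637).

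These 5 genes were among the 11 members that were lower in beta than in non-beta cells. The 2 comparisons share the beta cell libraries, so the values are given side by side only. Of those 11 members, 7 were higher in the labelled-positive library in 4 of 4 mice and 0 were lower, and without *H19* their median log2 fold change was 0.58. Among the 3858 tested genes that were lower in beta cells and had counts there, 18.6% were higher in 4 of 4 mice and 1.87% lower, with a median of 0.22. Of the 13 members higher in beta cells, 0 were higher in 4 of 4 mice, 2 were lower, and the median was −0.0025, against 8.59%, 8.76% and a median of 0.0080 for the 3002 genes higher in beta cells. As a share of the mean non-beta level, *Sgce* was at 5.26% in the labelled-positive libraries and 1.46% in the labelled-negative libraries. The corresponding shares were 11.9% and 5.88% for *Mest*, 14.8% and 5.94% for *Kcnq1*, and 7.00% and 3.53% for *Peg10*. *Grb10* (19.5% and 18.4%), *Cdkn1c* (11.1% and 10.8%) and *Ndn* (42.0% and 42.2%) had nearly equal shares.

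Markers of other islet cells moved in the same direction. Delta cell markers summed to 1399 to 2485 CPM in the labelled-positive libraries and 542 to 1046 CPM in the labelled-negative libraries, and PP cell markers to 299.5 to 421 and 89.0 to 159 CPM. Alpha cell markers summed to 2815 to 4073 and 1585 to 2484 CPM. All 3 delta and both PP cell markers, and 3 of 5 alpha cell markers, were higher in 4 of 4 mice. As shares of the non-beta mean, *Gcg* was at 1.97% and 0.957%, *Sst* at 18.05% and 7.10%, and *Ppy* at 12.4% and 4.38%. Endothelial and mesenchymal markers summed to at most 5.05 and 4.44 CPM in any beta cell library, and *Pecam1*, *Kdr*, *Cdh5* and *Plvap* were each at 0 in at least 1 of them. Acinar markers reached 1272 CPM in a labelled-positive and 232 CPM in a labelled-negative library. The part of RNA from these cells in the differences of *Sgce*, *Mest*, *Kcnq1* and *Peg10* was not tested.

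More members passed between mice than between the beta cell fractions. The test of the mouse terms passed for 5 of the 37 members in edgeR's quasi-likelihood test, *Kcnq1ot1* (adjusted *p* 0.000442), *Zim1* (0.00113), *Nap1l5* (0.00566), *Trappc9* (0.00573) and *Peg3* (0.00613), and for 4.08% of all genes. Without mouse 4 it passed for 0 members. *Kcnq1ot1* and *Zim1* passed without each of the other mice, *Peg3* not without mouse 3, *Nap1l5* not without mouse 1 or 3, and *Trappc9* not without any 1 of the 4. In both beta cell fractions of mouse 4, 6 members were more than 2-fold above the mean of the other 3 mice (9.11% of all genes), and 0 were more than 2-fold below (1.15%).

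**Figure D4:**
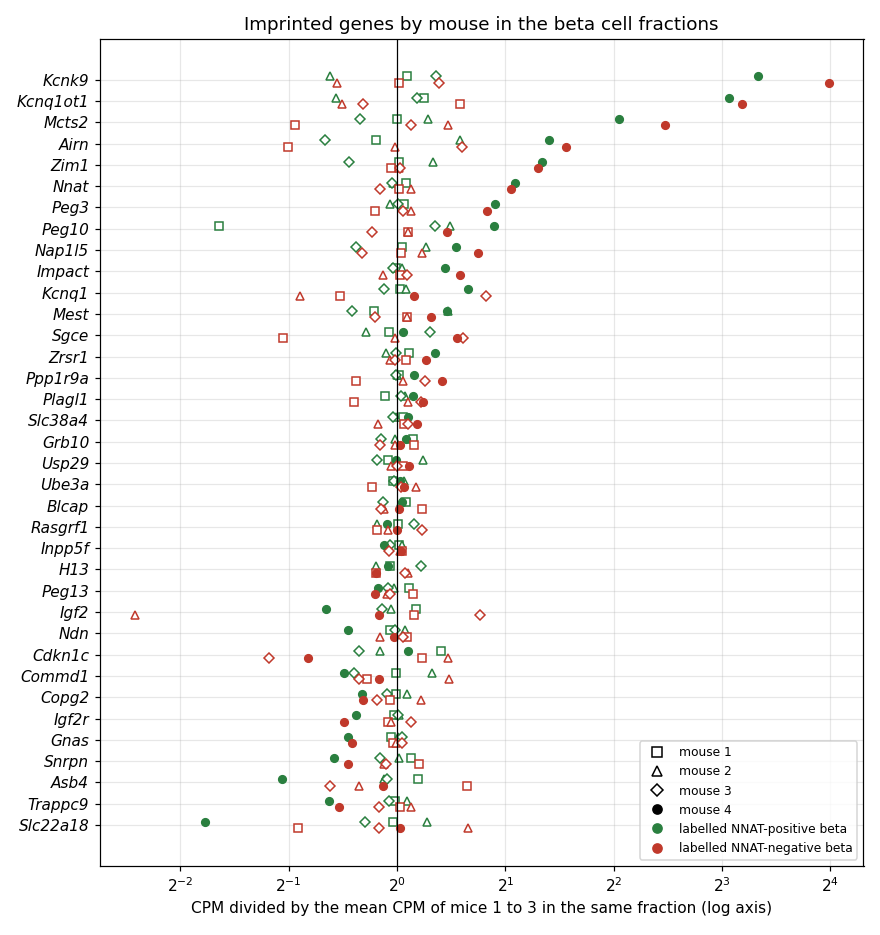
CPM of each beta cell library divided by the mean of mice 1 to 3 in the same fraction, on a log axis, for 36 members; green and red mark the labelled-positive libraries and NNAT-negative, and filled circles mouse 4. The filled circles of *Kcnk9*, *Kcnq1ot1*, *Mcts2*, *Airn*, *Zim1* and *Nnat* lie to the right of 2 in both colours, and *Trappc9* (0.647 and 0.690) lies left of 1.

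*Kcnq1ot1* had 5.73, 3.26 and 5.49 CPM in the labelled-positive libraries of mice 1 to 3 and 40.5 CPM in that of mouse 4. In the labelled-negative libraries it had 5.83, 2.74, 3.13 and 35.5 CPM. Mouse 4 was thus 8.39-fold and 9.10-fold above the mean of the others. *Kcnk9* was at 0.240 to 0.527 CPM in mice 1 to 3 and at 3.70 and 6.39 CPM in mouse 4, and *Mcts2* at 0.750 to 2.47 CPM and at 8.40 and 8.06 CPM. *Zim1* had 33.3 to 56.8 CPM in mice 1 to 3 and 114 and 105 CPM in mouse 4, and *Airn* 0.921 to 4.15 CPM and 7.33 and 5.44 CPM. *Peg3* was at 1.87 and 1.78 times the mean of the other mice, with no overlap between mouse 4 and the others.

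Genes of the same locus lay at different distances from the other mice. *Nnat* was at 2.12 and 2.07 times in mouse 4, and its host *Blcap* was at 1.03 and 1.01 times the mean of the other mice in the fractions labelled positive and negative. *Mcts2* was at 4.14 and 5.57 times and its host *H13* at 0.945 and 0.874 times. *Kcnq1ot1* stood beside *Kcnq1* at 1.58 and 1.11 times and *Cdkn1c* at 1.08 and 0.567 times. *Airn* was at 2.64 and 2.94 times and *Igf2r*, which it overlaps on the opposite strand, at 0.768 and 0.712 times. At the locus on chromosome 15, *Kcnk9* was at 10.1 and 15.9 times, *Peg13* at 0.885 and 0.868 times and *Trappc9* at 0.647 and 0.690 times. At the *Peg3* locus, *Zim1* was at 2.52 and 2.46 times and *Usp29* at 0.991 and 1.08 times. *Nap1l5* was at 1.46 and 1.68 times and its host *Herc3* at 0.857 and 0.994 times.

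Among genes that are not members, *Mcts1*, the gene from which *Mcts2* derives, was at 2.64 and 2.66 times in mouse 4. The imprinted long RNA *Meg3* was at 38.6 and 41.1 times, and the nuclear long RNAs *Malat1* and *Neat1* at 34.4 and 26.5 times and at 21.5 and 18.3 times. Their part in the values of the members was not tested. Since mouse 4 gave no non-beta library, the animal, its islet preparation and its sort cannot be told apart.

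Fractions and mice were also compared for genes related to the members and for genes that set or keep imprints. Of 16 non-imprinted relatives or host genes, 2 were higher in beta cells, *Copg1* and *Igf1r* (1.33, SE 0.11), and 5 lower, *Igf1*, *Kcnk3*, *Rasgrf2*, *Snrpb* and *Cdkn1a*. Of 18 genes of the imprint machinery 16 were tested. *Dnmt3a*, a de novo DNA methyltransferase gene, was higher in beta cells, at 135 and 130 CPM in the fractions labelled positive and negative against 70.2 CPM (0.73, SE 0.07). *Dnmt1*, which copies methylation at replication, was lower (−0.55, SE 0.12), as were *Arid4a* (−0.77, SE 0.15) and *Zfp57*, a zinc-finger gene that protects imprints and had 11, 26 and 16 counts in the non-beta libraries and 0 to 10 counts in the beta cell libraries, with 10 and 6 in those of mouse 4. The other 12 did not pass, and the median was −0.17. Between the beta cell fractions 0 genes of either list passed. The mouse terms passed for *Mcts1* among the relatives and for *Dnmt3a*, *Tet2* and *Tet3* in the machinery. In mouse 4, *Tet2*, a gene for an enzyme that oxidises methylated cytosine, was at 6.01 and 4.60 times the mean of the others, *Tet3* at 2.31 and 1.94 times and *Dnmt3a* at 1.56 and 1.53 times.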

How the data were processed

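The authors aligned reads of poly(A) libraries, made with a directional kit, to mm10 with STAR 2.7.1a and deposited raw counts per gene without normalisation. The strand setting of the counting is not given in the sources used here, so reads of genes that overlap on opposite strands may not be separated. DESeq2 1.32.0 is also named in the submitters' processing notes. The study's text gives a younger age for this experiment than the labels.

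Counts were fitted in R 4.3.3 with the quasi-likelihood test of edgeR 4.0.16 (TMM, filterByExpr by fraction, 17424 genes) on all 11 libraries, with fraction and mouse as terms. A gene passed at a *p* below 0.01 after Benjamini-Hochberg adjustment across the whole tested table. Each SE is the absolute log2 change over √*F*, and CPM are scaled by TMM library sizes. Deviations of beta cell libraries of the same mouse from their group means had a mean correlation of 0.314 (0.182 to 0.658 over 4 pairs), and those of different mice −0.103. With non-beta libraries the correlations were weaker. The same-mouse mean was 0.113 for labelled-positive and 0.0527 for labelled-negative libraries, against −0.0376 and −0.0176 for different mice. For labelled-negative libraries the ranges overlapped (0.0321 to 0.0662 and −0.0635 to 0.0683), and for labelled-positive ones they did not. Deviations sum to 0 within a fraction, which by itself lowers the correlations of different mice when those of the same mouse are positive. The pairing comes from the numbers in the labels and from the methods, which give 1 mouse per replicate. Exon lengths and overlaps came from gencode release M21. Named genes are all members between beta and non-beta cells, *Nnat* and members with an unadjusted *p* below 0.05 between the fractions, the relatives and imprint genes, and cell type markers. *Malat1*, *Neat1* and the comparison of mouse 4 with the other mice were added after the values were seen. Members and lists were chosen with earlier results of these data known. Alternatives used DESeq2 1.42.0, other size factors, no filter, other thresholds, subsets of libraries and no block. Depth ranged from 30420352 to 43238376 counts, and floors cover counting error only. On simulated counts of 17424 genes, the test between beta cell fractions recovered 98 of 105 genes changed 2-fold and 95 of 95 changed 4-fold and called 2 unchanged genes. There the changed genes were drawn from those with higher counts, and all genes had the same fixed spread. The simulated mice did not differ from each other, so these rates need not hold for the members.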

Additional observations from a re-analysis of the deposited data

Results flagged for a closer look

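Dixon's test was applied on the log scale to the 74 groups of 4 beta cell libraries, and chance marks about 1 in 20 groups. It marked 5, each for the library of mouse 4. In the libraries labelled NNAT-positive, *Nnat* stood above the other mice at 101 CPM and *Peg3* at 3051 CPM, and *Igf2r* below them at 173.3 CPM. *Ppp1r9a* was marked at 63.26 CPM, 1.12 times the mean of 3 closely spaced libraries at 56.2 to 57.3 CPM. In those labelled NNAT-negative, *Zim1* stood above at 105.1 CPM. On the log scale, no gene was marked in both fractions. The test depends on how closely the other 3 libraries lie, not on the size of the difference alone. *Kcnq1ot1* was not marked, although mouse 4 was 8.39-fold and 9.10-fold above the mean of the other mice.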

How the results depend on the processing

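Between the beta cell fractions, 0 members passed in the fits by edgeR without any 1 mouse, without the replicate block, with other size factors or with the beta cell libraries alone. DESeq2 called 3 (2 higher, *Sgce* and *Mest*, and 1 lower, *Nnat*). Without a filter on low counts 1 passed, and at an adjusted *p* below 0.05 1 passed, *Sgce* and higher in each. Between beta and non-beta cells, the 24 calls ranged from 19 to 24 when 1 mouse was left out (10 to 15 higher, 9 to 11 lower). Leaving out mouse 4 could change little here, since it has no non-beta library and the mouse is a block. Without the replicate block the number of higher members was 8. A more than 2-fold change left 13 members, 3 of them higher. For the mouse terms, leaving out 1 mouse gave 0 to 6 members, 2 without mouse 3 and 0 without mouse 4. DESeq2 called 13, the beta cell libraries alone gave 10, and the threshold of 0.05 gave 9. Shares of all genes were not counted for the alternative fits of this section, so their counts cannot be set against a general rate. Beta against non-beta, 27 members passed with DESeq2, without a filter and at 0.05, and 25 with RLE size factors or with hormone genes left out of library sizes. Calls were gained by *Zim1*, *Airn* and *Zrsr1* and, without mouse 2, by *Impact*. Another 3 members that did not pass changed sign. *Kcnq1ot1* was at 1.51 without the replicate block, −0.34 to 0.37 with 1 mouse left out (highest without mouse 2) and 0.062 in the fraction labelled NNAT-positive alone against non-beta cells. *Mcts2* was at 0.83 without the block and 0.034 in that fraction. *Nap1l5* was at −0.068 with DESeq2, −0.068 with RLE size factors, −0.00081 without a filter, −0.011 with hormone genes left out of library sizes, −0.11 to 0.12 with 1 mouse left out (lowest without mouse 2) and −0.020 in that fraction. The cause was not tested, except that mouse 4 has no non-beta library, so the fit without a block sets its beta cells against other mice. Depth limits *Igf2*, among others, with 2 to 30 counts in each library.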
